A study of Saccharomyces cerevisiae with 4 samples.

Results

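Start sites inside ORFs are positions where sequenced RNA molecules began within a protein-coding frame, on its own strand, and ran on past its stop codon. Whether each mapped 5′ end is a capped start of transcription was not tested. Repeatedly used ones were defined as positions with at least 10 reads of such molecules, among molecules that covered no whole ORF and did not run from upstream into the start codon of another sense ORF. By this rule 1403 of 96603 start sites of such molecules were kept, in 774 of 6002 annotated ORFs. These 774 ORFs are the hosts in what follows. The sites were chosen by their read counts, by their place inside an ORF and by an end past its stop codon, so these values are given as descriptions only.

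The molecules were sequenced by TIF-Seq, which keeps both ends of an RNA molecule, the cap and the poly(A) tail, together as a pair of positions. The single group was the haploid Saccharomyces cerevisiae strain FSY3636, a MATa strain derived from S288c that carries kanMX4 in place of RRP6. RRP6 encodes a nuclear exosome subunit that degrades RNA from its 3′ end. Cells were grown in rich glucose medium (YPAD) to mid-log phase, and each of 2 cultures was made into libraries by 2 independent preparations, giving 4 libraries. No wild-type sample was analysed here, so nothing below is a change caused by the loss of RRP6. The deposited count pools the 4 libraries into 1 column of 1833796 reads. The depth of each library is unknown, and no spread between replicates could be given. The labels were checked on RRP6, which had 0 reads, and on the mating type a genes MFA1, MFA2 and STE2, which had 3513, 1796 and 149 reads covering the whole ORF.

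RNA polymerase II in budding yeast scans downstream from the promoter and often begins transcription at several positions, preferably at a purine that follows a pyrimidine and with an adenine a few bases further upstream. Ribosomes usually begin at the first ATG of the RNA, so a start site placed after the annotated start codon can give a shorter protein if the next ATG is in frame, and none of the protein if it is not. In several yeast genes such pairs of starts are known to make a mitochondrial or secreted form and a cytosolic form of the same enzyme. Starts deeper inside genes are known as cryptic starts when chromatin factors are lost.

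The first sequences show sites of genes listed here for alternative starts that give more than 1 protein. Whether each listed gene, FUM1 among them, makes its forms from separate starts was not tested. Each runs 5′ to 3′ on the sense strand of R64, from 20 bases before the start site to at least 40 bases from it. The single capital letter is the first base of the molecules and the 3 capital letters are the first ATG after it. That ATG was in frame with the annotated ORF in every one shown here.
GRX2 (chrIV:1471006-1471121, plus strand): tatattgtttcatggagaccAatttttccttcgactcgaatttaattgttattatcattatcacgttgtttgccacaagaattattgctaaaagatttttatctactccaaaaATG
HTS1 (chrXVI:638957-639025, minus strand): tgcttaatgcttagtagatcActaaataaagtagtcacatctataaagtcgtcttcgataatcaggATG
FUM1 (chrXVI:47331-47407, plus strand): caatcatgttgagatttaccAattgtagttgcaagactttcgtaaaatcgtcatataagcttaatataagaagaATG
SUC2 (chrIX:37415-37474, plus strand): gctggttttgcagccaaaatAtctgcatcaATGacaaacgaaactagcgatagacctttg
TRM1 (chrIV:693195-693254, minus strand): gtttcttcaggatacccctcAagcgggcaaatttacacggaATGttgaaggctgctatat
KAR4 (chrIII:27942-28021, plus strand): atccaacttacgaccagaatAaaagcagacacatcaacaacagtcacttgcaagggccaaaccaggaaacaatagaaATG

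In the next set, molecules from starts inside the ORF outnumbered those that covered it. The capitals mark the same features, and the first ATG was again in frame.
HNT1 (chrIV:239547-239606, minus strand): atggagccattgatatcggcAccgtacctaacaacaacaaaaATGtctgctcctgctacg
BOL2 (chrVII:82427-82486, plus strand): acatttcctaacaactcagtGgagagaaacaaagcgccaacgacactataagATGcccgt
AIM29 (chrXI:579197-579256, plus strand): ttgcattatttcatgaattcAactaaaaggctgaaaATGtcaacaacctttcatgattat
YSA1 (chrII:461814-461885, minus strand): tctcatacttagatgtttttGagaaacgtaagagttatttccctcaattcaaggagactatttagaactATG
EMI1 (chrIV:1470760-1470819, minus strand): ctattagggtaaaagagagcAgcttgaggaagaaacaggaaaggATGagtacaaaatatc

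Each of these 11 sites begins with a purine after a pyrimidine. The third set lies at or just before the first base of the second exon of ribosomal protein genes with an intron. Here the first capital is the start site and the last capital the first base of that exon. In RPL19B both fall on the same base.
RPL19A (chrII:414725-414784, minus strand): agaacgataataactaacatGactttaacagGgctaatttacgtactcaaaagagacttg
RPL13B (chrXIII:550770-550829, minus strand): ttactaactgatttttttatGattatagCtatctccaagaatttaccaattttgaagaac
RPS30B (chrXV:678350-678409, minus strand): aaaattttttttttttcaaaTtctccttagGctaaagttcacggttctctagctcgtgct
RPL35A (chrIV:118137-118196, plus strand): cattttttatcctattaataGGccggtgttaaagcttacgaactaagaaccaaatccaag
RPL19B (chrII:168789-168848, plus strand): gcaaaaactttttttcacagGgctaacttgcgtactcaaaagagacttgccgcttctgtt

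The last set gives the 4 most read sites beyond 100 bases that directly follow the triplet TGA. The 4 capitals are that triplet and the first base of the molecules, with 10 bases of the molecules shown.
GCN4 (chrV:139482-139511, minus strand): ccaattccggagctagaTGACgctgtagtg
TDH3 (chrVII:883284-883313, minus strand): cggtattgaagaaggttTGATgaccactgt
GPM1 (chrXI:163969-163998, minus strand): ttctctcaaaagggtgaTGAAagatacaag
TDH3 (chrVII:883281-883310, minus strand): tattgaagaaggtttgaTGACcactgtcca

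Together the 1403 sites held 60323 reads, which is 32.9% of the 183518 reads of all molecules that began inside an ORF and ran past its stop codon, and 3.29% of all reads. In contrast, 78237 of the 96603 start sites (81.0%) had 1 read. The lowest number of reads per site was 10, the quartiles were 14, 22 and 41, and the highest was 10943. Just inside the limit 103 sites had 10 reads, and just outside it 137 sites had 9 reads. Sites no more than 20 bases apart on a strand formed 1086 regions. Most hosts, 546, had 1 site, 197 had 2 to 4 and 31 had 5 or more. From the same positions a further 446 reads ended inside the ORF, 95 belonged to molecules that ran into a later ORF and ended in it, and 5 covered another ORF.

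The most read site lay at a snoRNA gene. It was 150 bases inside YGL088W, an ORF of an uncharacterized protein, and its position VII 345986 is the annotated first base of SNR10, a snoRNA gene on the same strand. SNR10 guides pseudouridylation of ribosomal RNA and is needed for early processing of its precursor. The site had 10943 reads that ended at 398 different positions. All 35 sites of YGL088W, with 12754 reads, gave molecules over SNR10, against 1 read that covered the ORF. In 6 other hosts 8 sites gave molecules whose genome span, introns included, crossed an intronic snoRNA gene. Some of the 8 sites lay in an exon outside the snoRNA gene, and others directly before its annotated first base. The RPS22B site at XII 856796 lay inside the snoRNA gene SNR44. The 7 hosts together held 43 sites with molecules that crossed a snoRNA gene, with 21.7% of the reads of all 1403. Without them 1360 sites with 47260 reads remained. Beyond their position, nothing was tested that tells these molecules from YGL088W messages.

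Start sites were spread unevenly along the ORFs. Within 30 bases after the first base of the start codon lay 196 sites, or 14.0% (95% Wilson interval 12.3 to 15.9), against 2.14% of all positions of the host ORFs. From 31 to 100 bases lay 128 sites, or 9.12% (7.73 to 10.7), against 5.00% of the host positions. The shares from 101 to 300 bases and from 301 to 1000 bases were 14.1% and 40.8%, against 14.0% and 38.8% of the host positions. Beyond 1000 bases lay 309 sites, or 22.0% (19.9 to 24.3), against 40.0% of positions. When each ORF was divided into 10 equal parts, the first held 272 sites, the second 76 and the seventh 167. All intervals cover counting error only. Sites a few bases apart share sequence and often one promoter, so intervals that treat sites as independent are too narrow.

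**Figure D1:**
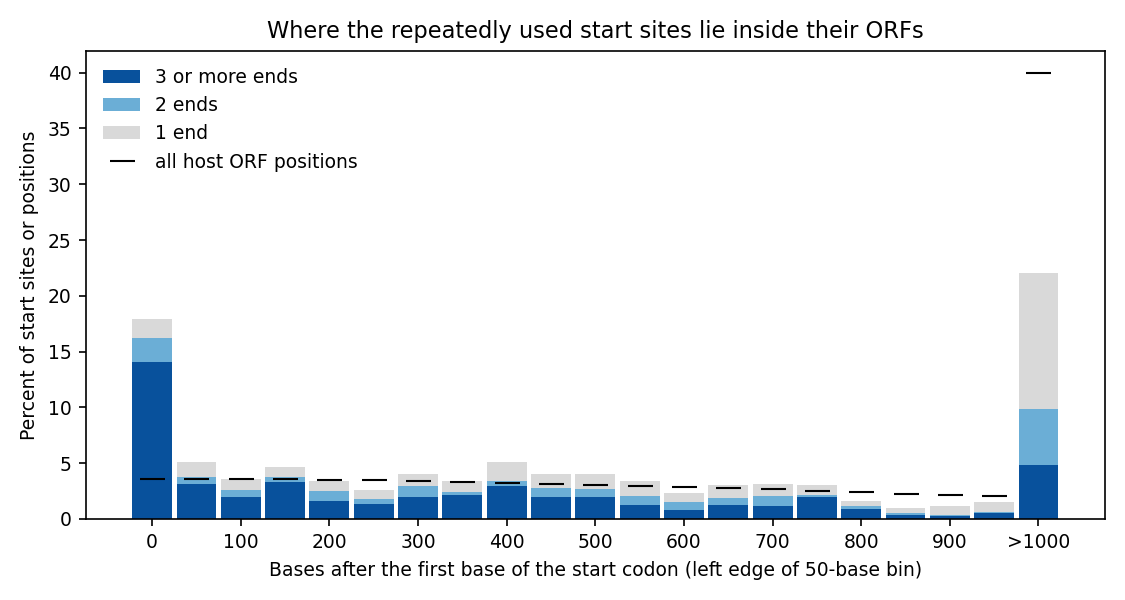
Share of the 1403 start sites by distance from the first base of the start codon, in bins of 50 bases and 1 wider bin beyond 1000 bases, split by the number of distinct 3′ ends of each site; black marks give the share of all host ORF positions. The first bin held 252 sites (18.0%) against 3.57% of positions, and most of its sites had 3 or more ends.

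The sites also differed in how many 3′ ends they were joined to. A single end was seen at 464 sites (33.1%), 245 sites had 2 ends and 694 sites (49.5%) had 3 or more. Of 10767 start sites with at least 10 reads whose molecules covered exactly 1 ORF, named covering start sites here, 1.44% had a single end. The contrast was also seen in a narrow range of reads, within which depths were not matched further. Among sites with 10 to 20 reads a single end was seen at 33.5% of 651 sites inside ORFs, against 1.91% of 4146 covering start sites. The highest read count of a site with 1 end was 128. The share with a single end was 7.65% within 30 bases, 21.9% from 31 to 100 bases, 24.7% from 101 to 300 bases, 35.1% from 301 to 1000 bases and 55.3% beyond 1000 bases. Whether copies made by PCR were collapsed before counting is not given in the sources used here, so reads of 1 start and 1 end may be copies of few molecules. Their part in these counts was not tested.

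Sites within 100 bases of the start codon, named near sites, were close to covering start sites in the pyrimidine and purine pair and in an adenine at -8, and sites farther in, named far sites, were not. In the bases directly before the start, near sites differed from covering start sites. Positions are counted with the first base of the molecule as 1 and the base before it as -1. Within 100 bases, 239 of 324 near sites had a pyrimidine at -1 followed by a purine, or 73.8% (68.7 to 78.3), against 76.9% (76.1 to 77.7) of covering start sites. The difference of -3.12 percentage points had a 95% Newcombe interval of -8.23 to 1.45. Covering start sites of the hosts alone had the pair in 68.7% (67.3 to 70.1). Beyond 100 bases, 215 of 1079 sites had the pair, or 19.9% (17.7 to 22.4), against 18.0% of sites with 1 read in the same stretch and 22.9% of host positions there (difference from the host positions -2.93 points, -5.21 to -0.44). The difference between the near and the far sites was 53.8 points (48.2 to 58.9). By distance, the share was 82.1% within 30 bases, 60.9% from 31 to 100, 31.8% from 101 to 300, 15.4% from 301 to 1000 and 20.7% beyond. Among the near sites, those with 3 or more ends had the pair in 83.4% (78.2 to 87.6) of 241 cases, and those with a single end in 37.2% (24.4 to 52.1) of 43. Among the far sites the shares were 22.1% and 20.9%. Near sites with 3 or more ends were above all covering start sites by 6.52 points (1.25 to 10.8). Far sites with 10 or more ends had the pair in 26 of 64 cases, or 40.6% (29.5 to 52.9), of which 28 sites lay over a snoRNA gene, and among the other 36 it was found in 11.

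An adenine at -8 was found at 55.6% (50.1 to 60.9) of near sites and at 32.6% (29.9 to 35.5) of far sites, against 56.5% of covering start sites and 32.3% of all host positions. The difference from covering start sites was -0.95 points (-6.47 to 4.45) for near sites and -23.9 points (-26.8 to -20.9) for far sites. Covering start sites of the hosts alone had this adenine in 51.4% (49.9 to 53.0). A TATA element was counted where either strand of the 150 bases upstream held TATAAAA, or its variants in the form of TATAAAT, or in place of these TATATAA, or lastly the fully alternating TATATAT. It was found at 38.3% (33.1 to 43.7) of near sites, against 35.3% of covering start sites and 23.8% of host positions within 100 bases. The windows of near sites reach into the promoter, as do those of the host positions beside them. At far sites it was found in 9.45% (7.85 to 11.3), against 5.84% of sites with 1 read (difference 3.62 points, 1.98 to 5.53) and 7.85% of host positions beyond 100 bases. Without the sites over snoRNA genes the far share was 6.46% (5.12 to 8.12). Of the 36 far sites with 10 or more ends that lay over no snoRNA gene, 3 had the element.

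**Figure D2:**
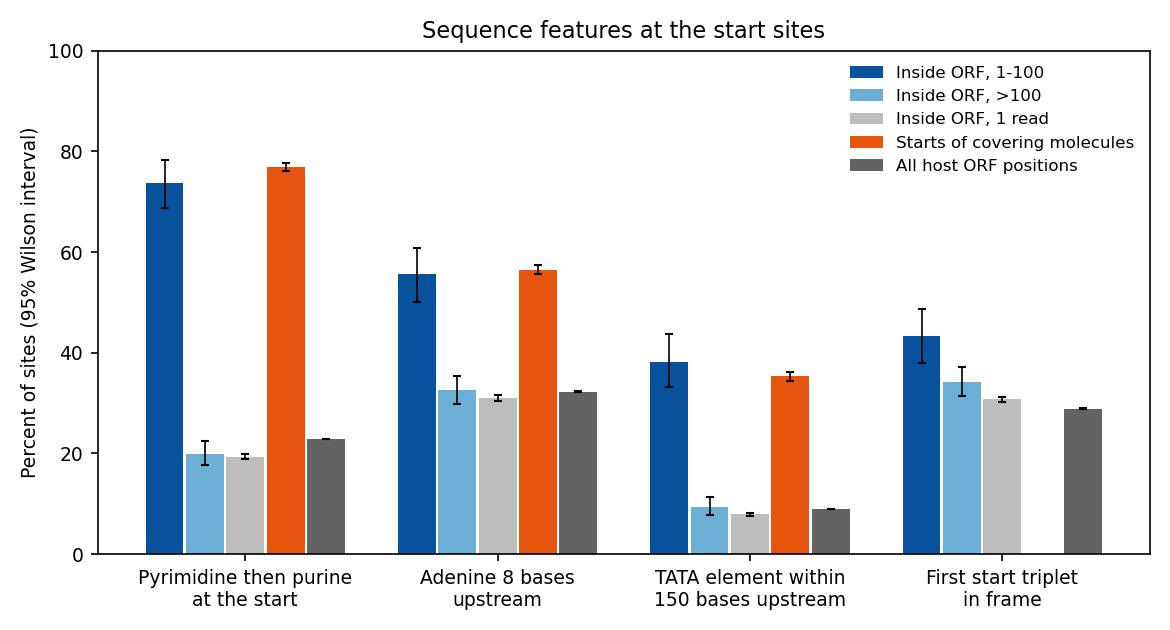
Share of start sites with each sequence feature, with 95% Wilson intervals, for sites within 100 bases of the start codon, sites beyond 100 bases, sites of the same hosts with 1 read, covering start sites and all host ORF positions; the in-frame share has no bar for covering start sites. In the first 3 features the bars of near sites stood beside those of covering start sites, and far sites were lower than both; the TATA share of far sites was 9.45%, against 5.84% of sites with 1 read beyond 100 bases, which the grey bar of sites at any distance does not show.

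A triplet that was commoner before far sites than elsewhere was noticed by reading the commonest triplets before them and is a description of a minority of these sites. Directly before the first base, 99 of 1079 far sites (9.18%, 7.59 to 11.0) had TGA, against 9 of 324 near sites (2.78%), 3.32% of far sites with 1 read, 2.37% of host positions beyond 100 bases and 0.269% of covering start sites. An A at -1 was found at 44.9% of far sites, 16.4% of near sites and 11.7% of covering start sites, against 32.3% of host positions beyond 100 bases. A G at -2 was found at 35.6% of far sites and 32.7% of near sites (difference for near minus far -2.87 points, -8.55 to 3.11), against 21.2% of covering start sites. Near sites were above covering start sites by 11.5 points (6.56 to 16.8) in G at -2 and by 6.19 points in GA directly before the start (8.64% against 2.45%). They were above by 2.51 points in TGA and by 4.65 points (0.96 to 9.10) in A at -1. The excess in A at -1 was not seen against covering start sites of the hosts alone, which had 16.2%. These had 18.8% in G at -2, 3.04% in GA and 0.407% in TGA. Near sites with 3 or more ends differed from all covering start sites by -1.34 points (-4.64 to 3.19) in A at -1. TGA preceded 11.0% of far sites with 3 or more ends, 6.18% of those with 1 end and 3 of the 64 (4.69%) with 10 or more ends. Without RPL3 and TDH3, the hosts with most sites, the share was 9.26% of 961 far sites.

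Near sites often left an ATG in frame. The first ATG after the start site was in frame with the host ORF at 139 of 321 near sites in coding exons, or 43.3% (38.0 to 48.8), against 22.4% of host positions within 100 bases. The difference was 20.9 points (15.6 to 26.4). With 3 or more ends the share was 49.2% (42.9 to 55.5) of 240 sites. A first ATG in frame occurred in 72 of the 201 hosts of near sites. The host positions within 100 bases are those of all 774 hosts, evenly spread, whereas most near sites lay within 30 bases. Sites sharing 1 ATG were each counted, 9 in HNT1 and 8 in BOL2 among them, so the interval of the difference is too narrow. Where an in-frame ATG remained at any distance, the nearest one left a median of 83.1% of the protein after near sites and 31.1% after far sites. At far sites the first ATG was in frame in 34.2% (31.4 to 37.2) of 1026 sites, against 29.4% of host positions beyond 100 bases. That gap rested on 2 hosts. Without RPL3 and TDH3 the far share was 29.7% (26.9 to 32.8), and in those 2 it was 68.6% (59.8 to 76.3). No ATG in any frame was left at 30 of 1347 sites.

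The distance from near sites to the usual starts of their genes is bounded by the definition of both, and is given as a description. In 169 hosts with at least 10 covering reads, the 264 near sites were a median of 53.5 bases (quartiles 29 and 93) after the most read covering start, and 126 (47.7%) were within 50 bases of it. In 52 of the 201 hosts the near sites had more reads than the molecules that covered the ORF. Of these, 32 had under 10 covering reads and are fixed by the read minimum, and 20 had 10 or more. All cells of a culture were measured together, so a start used by some cells and one used now and then by every cell cannot be told apart.

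Of 13 genes listed here for alternative starts that give more than 1 protein, 8 were hosts (61.5%), against 12.9% of all ORFs. In 6 of them the site lay within 100 bases of the start codon and the first ATG was in frame. Over all 774 hosts, 201 had a site within 100 bases, and in 72 of these a first ATG was in frame. The list was drawn up with earlier results of these data known. Its genes were not matched to other ORFs by covering reads, so these shares are descriptions only. GRX2 encodes a glutaredoxin found in mitochondria and the cytosol. Its site 9 bases after the A of the annotated start codon had 176 reads with 18 ends, against 476 covering reads, so 27.0% (23.7 to 30.5) of both together. The most read covering start, with 282 reads, lay 22 bases before the start codon, and the in-frame ATG after the inner site leaves out the first 34 of 143 residues. HTS1, the histidine transfer RNA synthetase of both compartments, had 3 sites with 46, 17 and 17 reads, at 14, 17 and 9 bases, together 80 against 49 covering reads. Their ATG leaves out 20 of 546 residues. The most read HTS1 covering start was 1 base before the start codon, with 32 reads, so both kinds of molecule began within a few bases of each other.

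FUM1, the fumarase of mitochondria and the cytosol, had 116 reads at 1 site 15 bases in, against 10 covering reads, and 91 of the 116 shared 1 end. SUC2 encodes invertase in a secreted and an intracellular form. Its sites at 50 and 54 bases had 28 and 15 reads, of which 25 and 14 shared 1 end, against 3 covering reads, and the in-frame ATG leaves out 20 of 532 residues. TRM1, a transfer RNA methyltransferase of mitochondria and nucleus, had 48 reads at 27 bases against 1 covering read, with 45 at 1 end. KAR4, a transcription factor of mating, had 13 reads with 9 ends at 33 bases against 11 covering reads, and its ATG leaves out 30 of 335 residues. FUM1, SUC2 and TRM1 thus rest on few start-end pairs, and GRX2, HTS1 and KAR4 on more ends for their depth. The sites of GLR1 (glutathione reductase) and GRS1 (glycine transfer RNA synthetase) lay 579 and 1263 bases in, had 28 reads each with 3 and 1 ends, and were followed by a first ATG out of frame. The other 5 genes of the list, VAS1, MOD5, CCA1, LEU4 and ALA1, were no hosts.

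A few other hosts were read almost wholly from inside the ORF. HNT1, a hydrolase of the histidine triad family, had 9 sites from 8 to 38 bases in with 819 reads, against 15 covering reads. The most read one, at 20 bases, had 347 reads and 32 ends, and all 9 were followed by the same in-frame ATG, which leaves out 14 of 158 residues. The most read HNT1 covering start, with 5 reads, lay 210 bases before the start codon. BOL2, a protein of cellular iron regulation, had 8 sites from 55 to 91 bases in with 574 reads against 6 covering reads, and all 8 shared an in-frame ATG after 35 of 120 residues. AIM29 had 516 reads at 4 sites from 8 to 20 bases in against 87 covering reads, and its in-frame ATG leaves out 8 of 155 residues. YSA1, an ADP-ribose hydrolase, had 325 reads at 5 sites from 2 to 47 bases in against 51 covering reads, with the in-frame ATG after 19 of 231 residues. In YSA1 the sites 8 and 17 bases in had 141 and 124 reads, and the most read covering start lay 8 bases before the start codon with 18 reads.

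EMI1, needed for early meiotic gene induction, was read deeper inside. Its 5 sites lay 237 to 280 bases after the start codon and had 336 reads, against 0 covering reads, and the most read of them had 272 reads with 37 ends. The first ATG after that site leaves out 96 of 187 residues and is in frame. EMI1, at IV 1470500 to 1471063 on the minus strand, overlaps GRX2, at IV 1471017 to 1471448 on the plus strand, at their 5′ ends. The EMI1 sites lay outside that overlap.

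**Figure D3:**
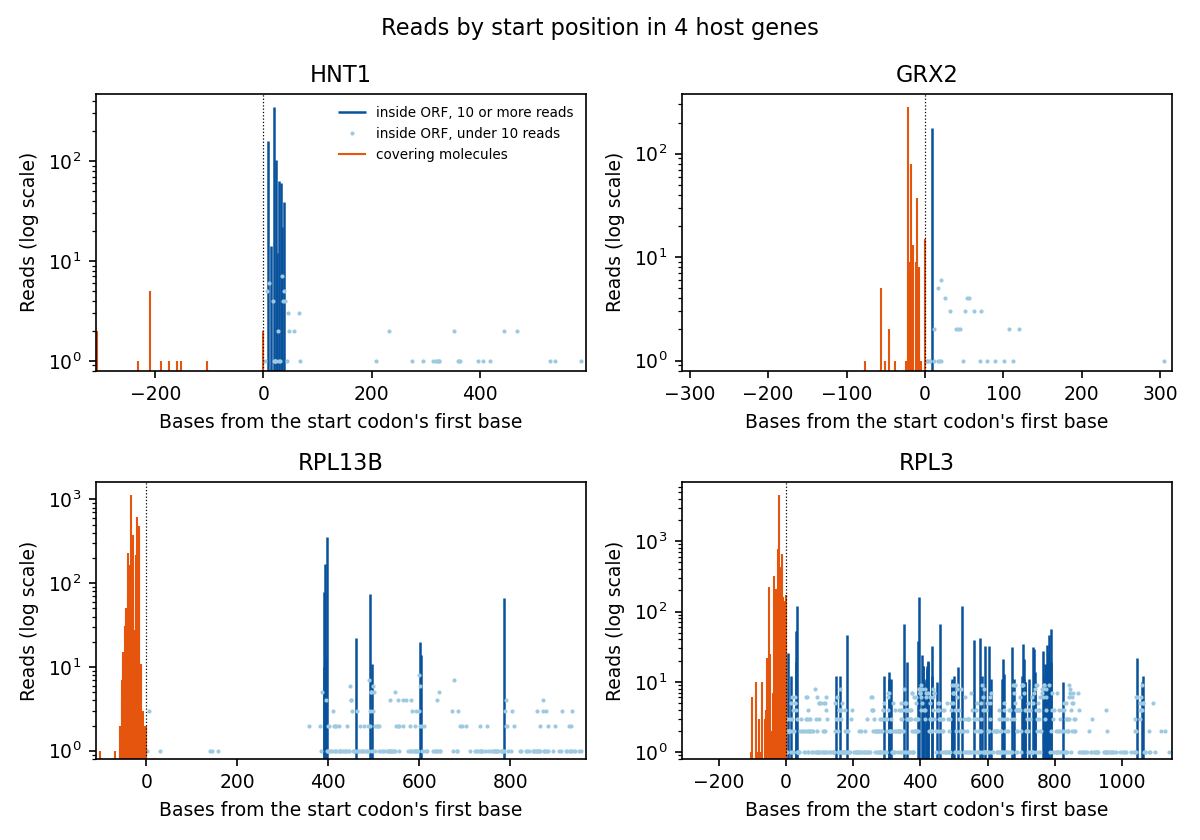
Reads by start position (log scale) against distance from the first base of the start codon in 4 hosts, for starts inside the ORF with 10 or more reads, starts inside with fewer reads, and starts of covering molecules; covering starts more than 300 bases upstream are not drawn. HNT1 sites crowd within 38 bases of the start codon, GRX2 has 1 site at 9 bases, RPL13B has its highest sites near 398 bases, and RPL3 has 78 sites along the ORF.

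**Figure D4:**
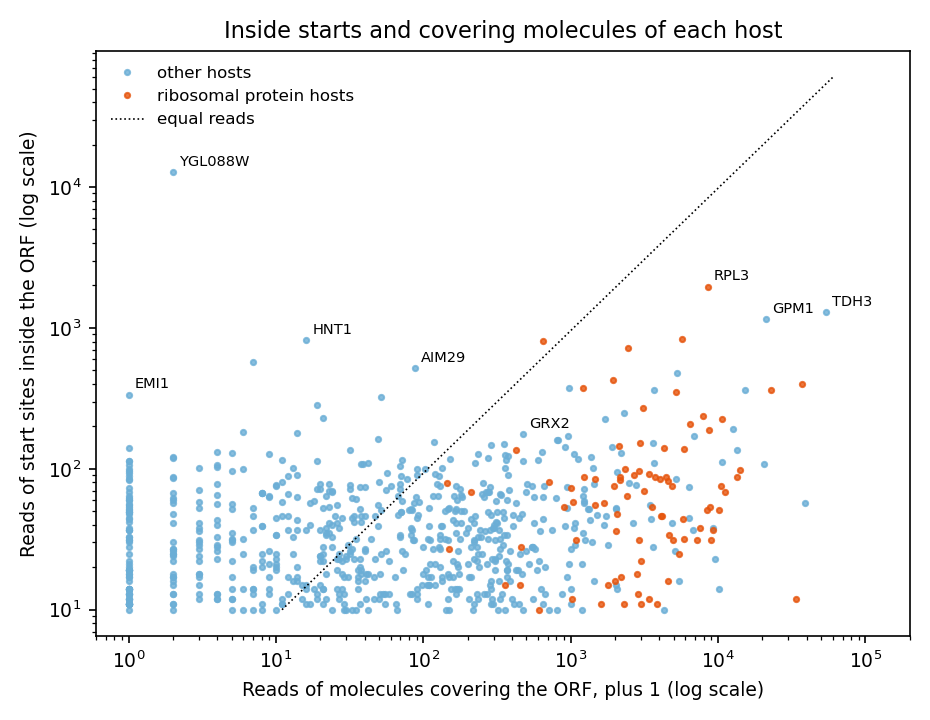
Reads of the start sites inside each of the 774 hosts against the reads of molecules covering the same ORF plus 1, both on log scales, with ribosomal protein hosts in orange and a dotted line of equal reads. YGL088W, EMI1, HNT1 and AIM29 lie above the line, and RPL3, TDH3, GPM1 and GRX2 below it.

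Over all hosts, 299 of 774 had more reads from inside starts than covering reads, and 76 had 0 covering reads. With at least 10 inside reads required, 200 of the 299 are fixed by the rule because they had under 10 covering reads, and 99 are not. Hosts without a covering read were mostly long. Of the 60 hosts with an ORF of 3001 bases or more 43 had none, against 11 of 345 hosts up to 1000 bases. Among all 6002 ORFs, 1566 had 0 covering reads. How these divide by ORF length was not counted, so the split is not shown to be particular to hosts. Molecules from the inside starts spanned a median of 500 bases of genome (quartiles 361 and 707), against 912 bases (728 and 1136) for covering molecules of the same hosts. They are shorter in part by construction. The 5 hosts with 0 covering reads and most reads were EMI1, RRP5 (140 reads at 4 sites), ADE6 (114 at 3), NUP188 (113 at 2) and NET1 (106 at 2). In the last 4, which encode a pre-ribosome factor, a purine synthesis enzyme, a nuclear pore protein and a nucleolar protein, the sites lay 1723 bases or more after the start codon.

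The share of ORFs that were hosts went up with the number of covering reads, from 4.85% of 1566 ORFs with 0 to 8.01% with 1 to 9, 12.2% with 10 to 99, 23.5% with 100 to 999 and 57.8% of 244 ORFs with 1000 or more. A fixed read minimum admits more sites in ORFs that gave more molecules. The median share of inside reads among inside and covering reads was 90.5% in hosts with 1 to 9 covering reads and 2.09% in hosts with 1000 or more. The read minimum itself sets a share above 50% in the hosts with 1 to 9.

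Among hosts with at least 20 covering reads and a site 30 or more bases in, the highest ratios of inside to covering reads were those of REX3, YSA1, TLD1, YKR018C, RPG1, CPA1, CDC3, ADE57, REX2 and ESF1. REX3, an RNA exonuclease, had 228 reads at 3 sites 476 to 731 bases in against 20 covering reads, and 121 of the 122 reads of its most read site shared 1 end. RPG1, a core subunit of a translation initiation factor, had 164 reads at 3 sites, the first 1999 bases in, against 48 covering reads. Its most read site had 93 of 94 reads at 1 end. TLD1, a regulator of lipid droplet lipolysis, had 92 reads with 1 end at 150 bases and 45 reads with 4 ends at 14 bases, against 31 covering reads. The uncharacterized YKR018C had 78 reads at 2 sites with 1 end each, against 22 covering reads. CPA1 (arginine synthesis), CDC3 (a septin), ADE57 (purine synthesis) and ESF1 (pre-ribosomal RNA processing) each had their most read site at 64 to 98 reads with 1 or 2 ends. REX2, another RNA exonuclease, differed from these: its 3 sites, 11 to 32 bases in, had 29, 21 and 19 reads with 3, 5 and 6 ends, against 23 covering reads.

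The hosts with most sites were RPL3, TDH3, YGL088W (described above), GCN4 and RPL13B. RPL3, a ribosomal protein, had 78 sites with 1963 reads, against 8504 covering reads. Per site the lowest count was 10, the median 17 and the highest 162, and 73 of the 78 sites lay beyond 100 bases. TDH3, a glyceraldehyde phosphate dehydrogenase, had 49 sites with 1290 reads, against 53842 covering reads, with a median of 15 and a highest count of 129 per site. A pyrimidine followed by a purine was found at 13 of the 78 RPL3 sites and 5 of the 49 TDH3 sites. GCN4, the activator of amino acid synthesis, had 13 sites from 226 to 662 bases in with 475 reads, against 5298 covering reads, whose most read start was 571 bases upstream of the start codon. GPM1, phosphoglycerate mutase, had the second most read site of all, 497 bases in, with 867 reads and 23 ends, against 21067 covering reads of the ORF. A first ATG in frame follows it and leaves out 177 of 247 residues. NSR1, a nucleolar protein, had 246 reads with 10 ends at 848 bases, of which 203 shared 1 end, against 968 covering reads. SNU13, a protein of snoRNA particles and the spliceosome, had 292 reads at 252 bases, of which 231 shared 1 end, against 3665 covering reads.

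Over all ORFs 12.9% were hosts, and 57.8% of those with 1000 or more covering reads. Of 16 glycolysis genes 10 were hosts, of 8 core histone genes 5, of 11 chaperone genes 5, of 15 translation factor genes 6 and of 137 cytosolic ribosomal protein genes 85. These are lists of abundant messages, and the median share of inside reads in their hosts was 5.75%, 0.701%, 15.5%, 3.87% and 2.06%. Of 7 annotated genes known for cryptic inside starts in chromatin mutants, SPB4 and AVO1 were hosts (28.6%, against 12.9% of all ORFs), with 23 and 28 reads at 1 end each, against 25 and 0 covering reads. The other 5, STE11, RAD18, VPS72, PCA1 and SMC3, were not, and FLO8 was not matched in the annotation used. This list was also drawn up with earlier results of these data known.

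Some intron-containing hosts had sites at or near the start of their second exon. Among 199 sites in 83 hosts with an intron, 56 lay in the intron itself, and 72 (36.2%) lay within 30 bases of the first base of an exon after an intron, against 7.06% of the positions of these hosts. The 72 sites belonged to 44 of the 83 hosts, and 58 of the 72 had 3 or more ends. Of the 44 hosts 39 were ribosomal protein genes. Most of the 83 intron-containing hosts were ribosomal protein genes as well, and an exact base share was not computed. Before the exon lay 48 sites with 3586 reads, a median of 10 and at most 18 bases away, and 9 lay on its first base. RPS30B had 584 reads with 27 ends 10 bases before the exon, and its 6 sites together had 802 reads against 653 covering reads. RPL19A had 396 and 276 reads at 11 and 12 bases before the exon, with 35 and 26 ends, within 720 reads against 2440 covering reads. RPL13B had 361 and 169 reads at 8 and 12 bases before, within 840 against 5702. RPL35A had 372 reads 1 base before, against 1210 covering reads. RPL19B had 229 reads and RPL43A 88 on the first base itself, and RPL20A had 201 reads 9 bases before the exon. The distance went with the strand of the gene. Sites before the exon lay 8 to 16 bases away on the minus strand and 1 or 2 bases away on the plus strand. Exceptions lay 2 and 3 bases away on the minus strand and 6 and 18 on the plus strand. All sites on the first base were on the plus strand. What sets this difference was not tested.

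The first exons of the 28 hosts with sites before the exon start hold a median of 3.5 coding bases, and their most read covering starts lay a median of 32 bases from the end of exon 1. Of 397 intron bases between those sites and the exon, 126 (31.7%) equalled the base at the same distance from the end of exon 1. Sites 1 or 2 bases before the exon matched in full. The most read RPL19A site, 11 bases before, matched at 4 bases, and that of RPS30B, 10 bases before, at 2. No share expected from unrelated sequence was computed. How reads across splice junctions were placed is not given in the sources used here, and its part in these sites was not tested. This window around the exon start and the split by strand were chosen after the sites had been looked at.

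Most reads from inside starts ended close to an end used by covering molecules of the same gene, which the rule does not ask beyond an end past the stop codon. In 574 hosts with at least 10 covering reads, 97.6% (97.4 to 97.7) of 38973 reads from inside starts ended within 10 bases of an end used by covering molecules. The interval treats reads as independent, which reads of the same start and end may not be, so it is too narrow. Any covering end counted here, so the measure was near its ceiling, and no value for unrelated ends was computed. All reads met it in 498 hosts, and 0 reads in 4 hosts, CHO2, CIR1, ARP4 and CDC3. Within 10 bases of the host's most used covering end lay 71.1% of the reads from inside starts, against 77.0% of the covering reads. In 109 hosts no read from an inside start ended there. That end was picked from the covering reads, which raises their own share, and hosts with more reads weigh more in both shares. The median end over hosts was 117.5 bases past the stop codon for molecules from inside starts and 113 bases for covering molecules. Per host the median difference was 0 bases (quartiles -2 and 5), and in 447 hosts (77.9%) both medians were within 20 bases. Reads of near and far sites ended at a covering end in 96.2% and 98.0% of cases. In GRX2, both kinds had a median end 82 bases past the stop codon, in RPL3 118 and in TDH3 106. Some hosts differed widely. PUP2, a proteasome subunit, had its median end at 812 bases for 20 reads from inside starts and at 57 bases for 671 covering reads, and TGS1, a cap methyltransferase, at 99 bases for 59 reads and at 401 bases for 17 covering reads. At least 6 A among the 10 genome bases after the end were found for 16.3% of reads from inside starts and 18.5% of covering reads of the hosts.

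**Figure D5:**
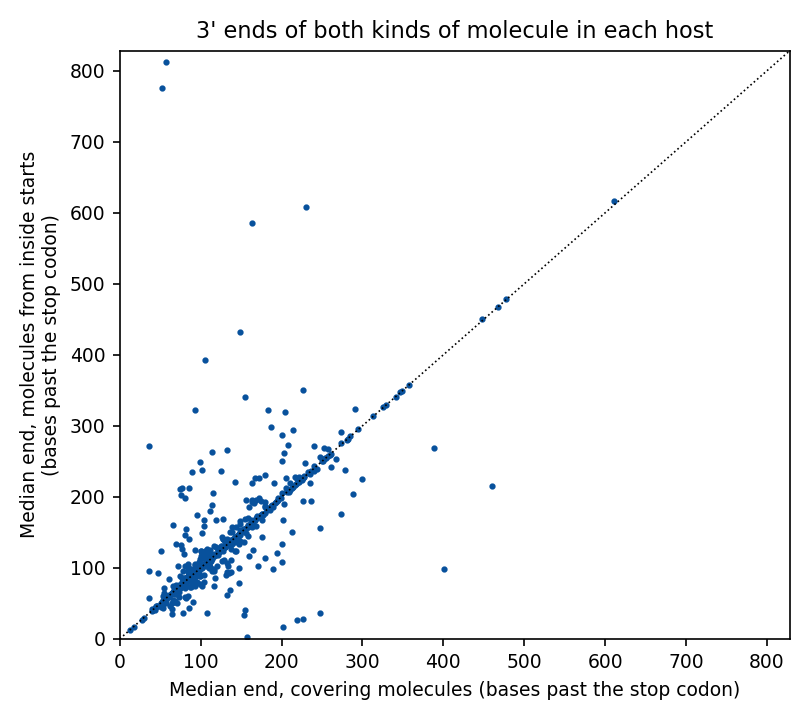
Median 3′ end of molecules from inside starts against that of covering molecules, in bases past the stop codon, for 574 hosts with at least 10 covering reads; the dotted line marks equal ends. Most hosts lie on or near the line, and 447 are within 20 bases of it.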

How the data were processed

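The deposited table gives read counts per pair of start and end position, pooled by the authors over 4 libraries. The build R64 and the tools Novoalign 2.07.10 and CASAVA are named in the submitters' processing notes. For their settings, PCR copies and splice junctions, the handling is not given in the sources used here. Positions were used as deposited, 1-based, with the R64 sequence and RefSeq annotation.

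Each pair was placed by the ORFs of its strand, in the order several ORFs covered, 1 covered, upstream start with an end inside, inside start with an end past the stop codon, and wholly inside. Distances include introns, except that frames were read on spliced coordinates. Shares carry 95% Wilson intervals and differences Newcombe intervals, which cover counting error only. No test across samples was possible with 1 pooled column, and no p is given. The planned edgeR comparison of cultures and preparations was not run for that reason. Class assignment, coding positions and intervals were tested on simulated data with known answers. The simulated molecules came from ORFs without a close neighbour on their strand, so the rules for neighbouring ORFs were not tested. The intervals were tested on independent counts, which clustered sites are not. The work used Python 3.11.15, numpy 2.4.6 and pandas 2.3.3.

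Members and lists were chosen with earlier results of these data known. Hosts are named when they hold one of the 15 most read sites (1 per host), one of the 10 highest ratios of inside to covering reads among hosts with 20 or more covering reads and a site 30 or more bases in, one of the 5 highest numbers of sites, one of the 5 highest read counts with 0 covering reads, or a place on the lists of alternative and cryptic starts. PUP2, TGS1, RPL43A, CHO2, CIR1 and ARP4 were chosen after values were seen. So were the snoRNA split, the TGA count and the comparison at 10 to 20 reads. The strand split at exons and the splits by distance and ends together were also chosen then.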

Additional observations from a re-analysis of the deposited data

How the results depend on the processing

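No paired analysis was possible because the 4 libraries are pooled in 1 column, and leaving out a culture or preparation was not run for the same reason. The number of sites was 2843, 779 and 267 with at least 5, 20 and 50 reads, and 694 and 121 with at least 3 and 10 ends. The number of regions stayed within 1.5 times under all 4 alternatives run. Of 67 alternatives, 36 stayed within 1.5 times the count or within the interval of the share.

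The share within 100 bases was 20.5% at 20 reads, 20.2% at 50 reads, 19.9% with 1 site per region, 17.6% by reads and 34.7% with 3 or more ends. The pyrimidine and purine pair had 29.7% at 20 reads, 29.0% per region, 44.8% by reads, 36.1% without ribosomal protein hosts and 43.4% with 3 or more ends. An A at -8 had 49.6% by reads, 40.8% without ribosomal protein hosts and 42.5% with 3 or more ends. The TATA share was 12.9% per region, 31.6% by reads, 20.9% with 3 or more ends and, as an alternative added after the data were seen, 14.0% without sites over snoRNA genes. A first ATG in frame had 32.2% per region, 30.9% by reads, 42.1% with 3 or more ends and, also added later, 33.2% without RPL3 and TDH3. Reads ending at a covering end made up 97.7% at 5 reads, 97.4% at 20, 96.6% without ribosomal protein hosts, 97.2% with 3 or more ends and 97.3% without RPL3 and TDH3. Weights by reads give the SNR10 site most influence, and the other causes were not tested.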
